A study of Mus musculus with 3 samples.

Results

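The report covers 10 genes of the semaphorin and plexin families in mouse lung endothelial cells (ECs), out of 32285 genes in each count matrix. The ligands were Sema3c, Sema3f, Sema3g, Sema5a, Sema6a, Sema6d and Sema7a, and the receptors were Plxnd1, Plxna2 and Plxna4. They were listed by symbol, and Sema5a was chosen on its low level at 6 h in these libraries, so its difference at 6 h is a description and carries no test. The 3 libraries, 1 per group, came from wild-type C57BL/6 male mice, young adults by the methods. The control library was made 6 h after PBS was given through the tail vein. The B16-F10 libraries were made 6 h and 30 h after 200000 B16-F10 melanoma cells in 100 µl were given by the same route, to follow the response of lung ECs to arriving tumor cells. Each library pooled mice, 2 by the labels, while the methods give 3 per sample for the experiment with a 30 h sample. This conflict was not settled. No 30 h PBS library was analysed here, so time after injection and the presence of tumor cells cannot be told apart in the 30 h comparison.

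Semaphorins are guidance cues that were first described in growing axons and that also steer endothelial cells. Class 3 semaphorins are secreted and mostly act through complexes of a neuropilin and a plexin, classes 5 and 6 span the membrane, and Sema7a is held by a lipid anchor. Plexins carry an intracellular domain that acts on small GTPases of the Ras and Rap families, and in the vasculature the pathway is known for limiting sprouting and for setting vessel pattern and permeability.

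The cells had been sorted as Pecam1-positive and Ptprc-negative, and the label of the 6 h library says that melanoma cells were added to it from the sort. Each library held between 124085451 and 140601123 UMIs, where a UMI marks 1 captured RNA molecule. Barcodes with 1000 to 5000 detected genes, under 20% mitochondrial UMIs and at least 2 UMIs of Pecam1 and Cdh5 together counted as endothelial. They numbered 11231 in the control, 10583 at 6 h and 9278 at 30 h, with medians of 7782, 8033 and 8675.5 UMIs. Between 22 and 38 endothelial barcodes were shared by a pair of libraries. Levels are UMIs per 1000000 UMIs of the same sum (CPM), and 3 values in a row are in the order control, 6 h, 30 h. They count 3′ ends and are not divided by gene length, so each gene is compared only with itself. All intervals are 95% and cover counting error only, and with 1 library per group no difference between libraries has a replicate check or a p-value.

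Classes were gated on marker genes that include no semaphorin, plexin or neuropilin. General capillary ECs (gCap) numbered 5912, 5704 and 4768, and aerocytes (aCap), the large capillary cells of gas exchange, 1246, 1056 and 1226. Artery-gated barcodes numbered 149, 133 and 237, vein-gated 432, 321 and 329, and lymphatic (LEC) 67, 50 and 51. The remaining 28.7% to 31.4% of endothelial barcodes were ungated, since they met no gate or several. The aCap, vein and LEC marker sums were highest in their own class. The gCap and artery gates were weaker. The gCap markers summed to 3635 to 3779 CPM in gCap and 2102 to 2629 CPM in artery-gated barcodes. The 6 artery markers summed to 1496 to 1753 CPM in artery-gated and 696 to 727 CPM in gCap barcodes, and the artery-gated barcodes also held 915 to 1183 CPM of the vein list. Most of that vein sum was Vwf (1086, 859 and 1016 CPM), and the vein marker Slc6a2 was 6.75, 3.30 and 1.78 CPM there.

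Promoters of members are shown for the ligand and the receptor whose levels moved past 1.5-fold between libraries (Sema5a and Plxnd1) and for a pair of ligands with opposite levels in gCap and aCap barcodes (Sema3g and Sema7a). Each runs from 250 bases before to 50 bases after a transcript start, 5′ to 3′ on the gene's strand, from RefSeq on build GRCm38.p6. Of the members, 7 had such an entry. Capitals mark matches on either strand to TTCNNNGAA (STAT factors), AGAACA (glucocorticoid receptor), CACGTG (E-box), GGGCGG (GC box) and TGGGAA (RBPJ, the Notch factor). Matches may overlap.
Sema5a, chr15:32244563-32244862, plus strand: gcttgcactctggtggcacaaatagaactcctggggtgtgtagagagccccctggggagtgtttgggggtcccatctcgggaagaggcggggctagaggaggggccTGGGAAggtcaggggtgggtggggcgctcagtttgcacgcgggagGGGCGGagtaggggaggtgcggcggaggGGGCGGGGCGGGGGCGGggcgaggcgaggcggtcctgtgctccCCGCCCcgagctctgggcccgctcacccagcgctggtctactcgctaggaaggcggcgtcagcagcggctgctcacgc
Plxnd1, chr6:115994956-115995255, minus strand: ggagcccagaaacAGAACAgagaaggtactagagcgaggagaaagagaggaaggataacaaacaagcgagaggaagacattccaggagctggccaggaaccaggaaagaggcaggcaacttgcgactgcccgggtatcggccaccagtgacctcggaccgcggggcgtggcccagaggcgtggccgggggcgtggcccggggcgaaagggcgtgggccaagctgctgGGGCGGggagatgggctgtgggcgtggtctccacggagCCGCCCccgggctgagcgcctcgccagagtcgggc
Sema3g, chr14:31217623-31217922, plus strand: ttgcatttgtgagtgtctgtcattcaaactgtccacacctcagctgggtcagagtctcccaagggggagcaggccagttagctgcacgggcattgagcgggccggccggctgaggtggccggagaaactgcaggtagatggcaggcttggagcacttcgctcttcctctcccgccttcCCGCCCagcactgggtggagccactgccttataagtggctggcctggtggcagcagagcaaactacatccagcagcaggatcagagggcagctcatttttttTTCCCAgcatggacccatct
Sema7a, chr9:57939862-57940161, plus strand: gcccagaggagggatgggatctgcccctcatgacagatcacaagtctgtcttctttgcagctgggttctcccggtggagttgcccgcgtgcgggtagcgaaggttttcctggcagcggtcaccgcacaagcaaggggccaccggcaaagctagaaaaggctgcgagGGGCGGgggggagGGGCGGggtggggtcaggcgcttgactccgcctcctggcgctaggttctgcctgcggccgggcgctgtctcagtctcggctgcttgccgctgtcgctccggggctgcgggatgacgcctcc
The Sema5a window held 5 GC boxes, of which 2 overlap each other, and 1 RBPJ match, and its GC content was 71.3% against a median of 52.7% over 32817 windows of the same length. The Plxnd1 window held 2 GC boxes and the only AGAACA of these 4 windows. Sema3g had 1 GC box and 1 RBPJ match 31 bases after the start, and Sema7a had 2 GC boxes. GC boxes occurred in 35.6% of all windows, RBPJ matches in 25.6%, AGAACA in 19.0%, TTCNNNGAA in 8.29% and CACGTG in 7.15%. None of the 4 windows held TTCNNNGAA or CACGTG, which says only that these letters are not in them.

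Sema5a was lower in both B16-F10 libraries. Sema5a (ENSMUSG00000022231, chr15:32244810-32696341 in GRCm38, plus strand) encodes a membrane semaphorin with thrombospondin repeats. Its level over all ECs was 63.8 CPM (62.2 to 65.4) in the control, 26.8 CPM (25.8 to 28.0) at 6 h and 26.3 CPM (25.2 to 27.4) at 30 h. The control stood apart, and the intervals of the 6 h and 30 h libraries overlapped. On log2(CPM + 1) it fell by 1.22 at 6 h, where the interval of the log2 CPM ratio ran from −1.32 to −1.18. At 30 h the difference was −1.25 (−1.35 to −1.21). Both ratios use the control library that entered the choice of Sema5a, so the 30 h value is no independent support for the 6 h one. At 6 h this was the 3rd lowest ratio of 10175 genes that averaged 5 CPM or more, which is the value it was picked for, and at 30 h it ranked 46th from the lowest.

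The lower Sema5a level was present in capillary and artery-gated barcodes. In gCap barcodes Sema5a measured 58.1, 22.0 and 17.1 CPM, and in aCap barcodes 91.4, 57.2 and 52.3 CPM. The log2 difference at 6 h was −1.36 (−1.50 to −1.30) in gCap and −0.67 (−0.82 to −0.54) in aCap. The 30 h values were −1.70 (−1.88 to −1.64) and −0.79 (−0.94 to −0.67). The intervals of both classes lay apart at each time, although a difference between classes within 1 library per group could not be tested. Artery-gated barcodes held 58.5, 18.1 and 25.8 CPM from 78, 22 and 58 UMIs. They also held 2419, 2629 and 2102 CPM of the gCap markers, and the part of this mixture in their Sema5a values was not tested. Vein-gated barcodes held only 2.87 to 3.89 CPM and LEC 0 to 5.45 CPM in any library. The 0 UMIs at 6 h in LEC have an upper interval bound of 9.33 CPM, so no difference was detectable in these 2 classes.

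Sema5a was also compared in gCap barcodes with and without UMIs of both Pim3 and Bcl3. Among gCap barcodes with UMIs of both Pim3 and Bcl3, markers of the study's reactive capillary cells, Sema5a was 45.6, 17.8 and 22.0 CPM. In the other gCap barcodes, which may hold UMIs of either gene alone, it was 59.7, 23.4 and 16.6 CPM. Both sets were lower in the B16-F10 libraries. Summed immediate early and heat shock genes of gCap barcodes were 6851 CPM in the control, 10082 CPM at 6 h and 4843 CPM at 30 h. Every gene of this sum was above the control at 6 h. The heat shock genes Hspa1a (14.0, 80.8 and 11.8 CPM) and Hspa1b (13.5, 97.1 and 7.90 CPM) differed by more than the sum. Epithelial markers summed to 495, 288 and 276 CPM in gCap and 720, 158 and 101 CPM in aCap barcodes. Red cell markers summed to 2393, 1610 and 655 CPM in gCap and 2403, 539 and 443 CPM in aCap. The part of these genes in the Sema5a difference was not tested. Droplets of 1 to 100 UMIs, taken as empty, held 44.5, 20.6 and 17.7 CPM of Sema5a, which moved in the same way as the ECs.

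The other ligands stayed within 1.5-fold of the control over all ECs. Sema6d, a membrane ligand of Plxna1, was 162 CPM in the control, 203 CPM at 6 h and 220.4 CPM at 30 h, log2 differences of 0.33 (0.30 to 0.36) and 0.44 (0.41 to 0.47). Sema3g, a secreted ligand of vascular cells, was 176 CPM and 181 CPM in the control and 6 h libraries and 244 CPM at 30 h, with log2 differences of 0.04 (0.00 to 0.07) and 0.47 (0.44 to 0.50). At 6 h Sema6d differed by 0.62 in ungated barcodes, past 1.5-fold, and by 0.21 in gCap and 0.13 in aCap. Both genes were highest at 30 h, and only for Sema3g were the control and 6 h levels close. Sema3f, a secreted ligand with a preference for Nrp2, went from 175 CPM to 199 CPM at 6 h and 216 CPM at 30 h.

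Sema6a and Sema3c were lower at 6 h. Sema6a (ligand of Plxna2 and Plxna4) measured 636, 534 and 523 CPM, log2 differences of −0.25 (−0.27 to −0.23) and −0.28 (−0.30 to −0.26). Sema3c, which can signal through Plxnd1, measured 1493, 1270.1 and 1455 CPM, so its log2 difference was −0.23 at 6 h and −0.04 (−0.05 to −0.03) at 30 h. The 6 h difference of Sema3c was −0.28 in gCap and −0.30 in ungated barcodes, but −0.01 in aCap (−0.08 to 0.06) and 0.11 in vein-gated barcodes (0.02 to 0.20). Sema7a was 104, 98.2 and 108 CPM, the smallest spread of the ligands. The plot of levels by library shows these values.

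**Figure D1:**
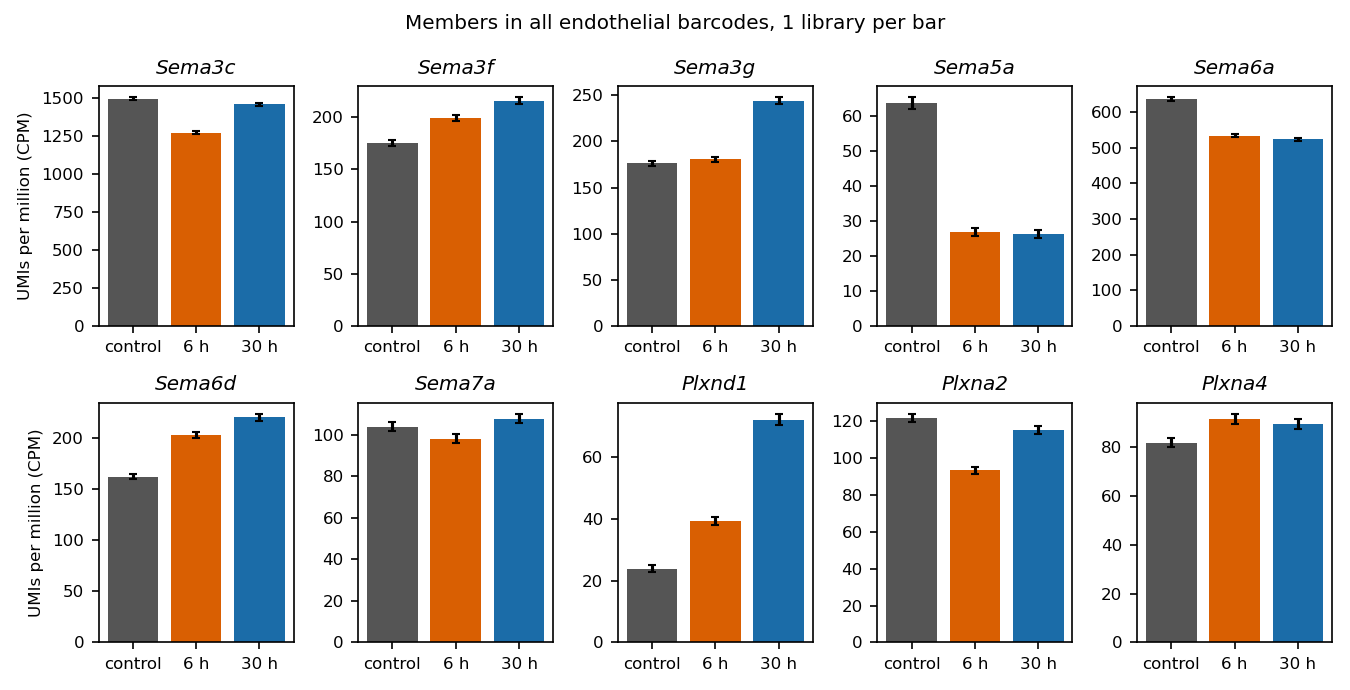
Levels of the 10 genes (CPM, UMIs per 1000000) in all endothelial barcodes of the control, B16-F10 6 h and B16-F10 30 h libraries. Bars are single libraries, and error bars are 95% counting intervals. Sema5a is lower in both B16-F10 libraries (26.8 and 26.3 against 63.8 CPM) and Plxnd1 is higher (39.4 and 72.1 against 23.9 CPM).

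Plxnd1 was the member with the highest ratio to the control. Plxnd1 (ENSMUSG00000030123, chr6:115954811-115995005, minus strand) encodes the endothelial receptor of Sema3e and, with neuropilins, of Sema3c. Its level was 23.9 CPM (22.9 to 24.9) in the control, 39.4 CPM (38.1 to 40.8) at 6 h and 72.1 CPM (70.3 to 74.0) at 30 h. The intervals of the 3 libraries did not overlap. The control and the first B16-F10 library were both made at 6 h, so only the 30 h library differed in time. The log2 differences were 0.70 (0.64 to 0.80) and 1.55 (1.52 to 1.67), at the 125th and 21st places from the highest of 10175 genes, and 0.85 (0.81 to 0.93) between 30 h and 6 h.

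All 5 classes held more Plxnd1 at 6 h and at 30 h than in the control. It measured 23.6, 32.8 and 77.9 CPM in gCap, 12.6, 20.4 and 37.0 CPM in aCap, and 50.98, 74.2 and 165 CPM in artery-gated barcodes. Vein-gated barcodes held 39.0, 51.1 and 85.0 CPM, and LEC 32.7, 73.3 and 71.9 CPM from 18, 29 and 36 UMIs. At 30 h the log2 differences lay between 1.11 and 1.68, and at 6 h between 0.38 in vein-gated and 1.14 in LEC barcodes, with intervals above 0 in each class. The 6 h difference in gCap, 0.46 (0.36 to 0.58), was below 1.5-fold, and that of ungated barcodes was 1.15 (1.03 to 1.32). Empty droplets held 24.8, 36.5 and 73.4 CPM of Plxnd1, close to the ECs of the same library. Other markers moved between the libraries too. The 7 immune markers summed to 19.5, 43.5 and 35.5 CPM over all ECs, with 6 of 7 above the control at 6 h and all 7 at 30 h, and none was at 0. The 6 epithelial markers summed to 778, 576 and 362 CPM and the 3 red cell markers to 2339, 1542 and 614 CPM. Immune barcodes outside the endothelial gate held 16.7, 34.3 and 13.1 CPM of Plxnd1, from only 2, 14 and 4 UMIs. Their intervals were 2.02 to 60.2, 18.7 to 57.5 and 3.56 to 33.4 CPM and overlapped each other. They contained the gCap level in the control and at 6 h and lay below it at 30 h. The part of these markers and barcodes in the Plxnd1 difference was not tested.

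Plxna2 and Plxna4, receptors of Sema6a, stayed within 1.5-fold over all ECs. Plxna2 was 122 CPM in the control, 93.3 CPM at 6 h and 115 CPM at 30 h, so it was low at 6 h, with a log2 difference of −0.38 (−0.42 to −0.34). Its 30 h value was higher than the control in gCap (94.5 against 80.5 CPM) and lower in aCap (200.0 against 294 CPM). Plxna4 was 81.8, 91.5 and 89.5 CPM, with log2 differences of 0.16 (0.12 to 0.21) and 0.13 (0.08 to 0.18). Gene models on the same strand lie inside Plxna2, and antisense models overlap Plxna4, Sema5a and Sema6d. Whether any of these models affected the counts was not tested.

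**Figure D2:**
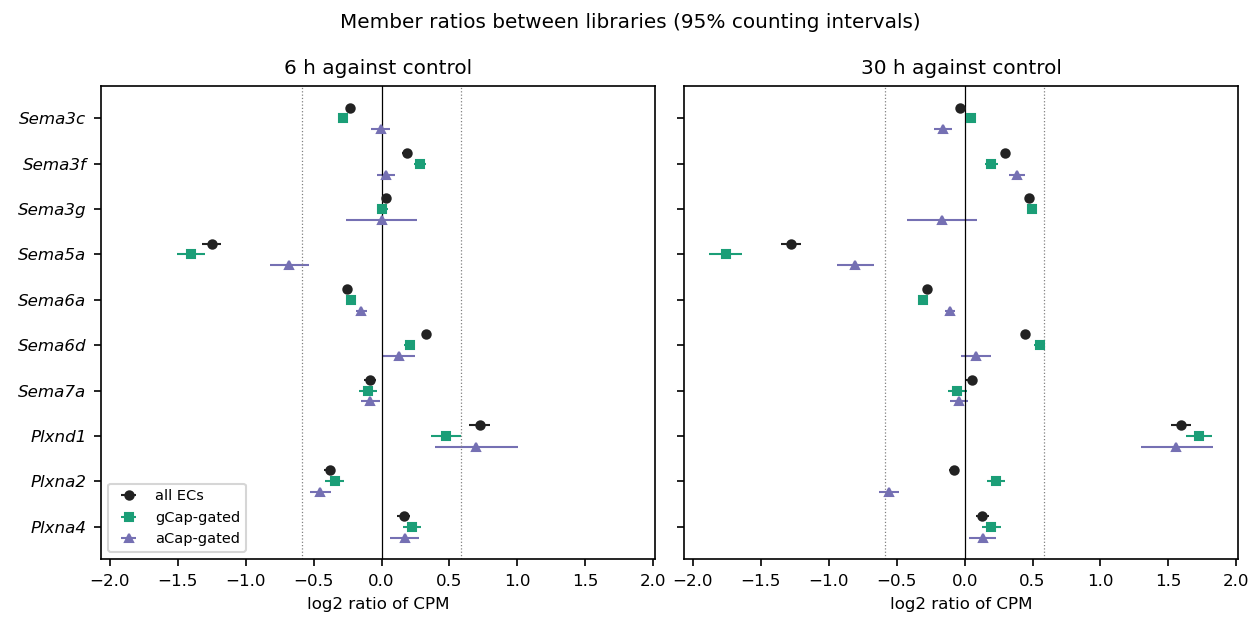
Log2 ratio of CPM against the control at 6 h (left) and 30 h (right) for each gene in all ECs, gCap-gated and aCap-gated barcodes, drawn without a pseudocount. Horizontal bars are 95% counting intervals, and dotted lines mark 1.5-fold. Sema5a lies left of the lower line and Plxnd1 at 30 h right of the upper line in each set, while Plxna2 at 30 h lies on opposite sides of 0 in gCap and aCap.

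Counted at 1.5-fold on CPM + 1, 1 member (Plxnd1) was called higher and 1 (Sema5a) lower at each time. Over all 10175 genes that averaged 5 CPM or more, 1.8% were higher and 1.14% lower at 6 h, and 4.24% were higher and 4.39% lower at 30 h. Nothing is read from the count that includes Sema5a at 6 h. With TMM factors the 30 h background was 557 genes higher and 311 lower, against 431 and 447 by CPM, and the called members did not change. The median log2 difference of the members was −0.02 at 6 h and 0.09 at 30 h, beside −0.01 and −0.07 over all genes. The members thus spread to both sides of 0 at each time.

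Other genes of the pathway were counted against the same shares of all genes. Of 13 other semaphorins, 4 reached 5 CPM, led by Sema4c at 17.5, 21.5 and 22.6 CPM and Sema6b at 11.6, 12.1 and 10.1 CPM, and none was called against the control. Of 6 other plexins, Plxna1 (92.3, 102 and 103 CPM), Plxnc1 (19.8, 27.8 and 18.3 CPM) and Plxnb2 (9.92, 12.2 and 10.04 CPM) were tested and none was called. The co-receptors Nrp1 (685, 714 and 816 CPM) and Nrp2 (18.01, 21.3 and 21.6 CPM) were both above the control at both times, by at most 0.25 on the log2 scale.

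Of 22 tested intracellular partners, 1 was called higher at 6 h, beside 1.8% of all genes, and 3 were called lower at 30 h, beside 4.39%. Rnd3 (16.2, 22.0 and 9.33 CPM) and the Ras-related Rras2 (39.9, 42.0 and 26.1 CPM) were among those lower at 30 h. The partners' median log2 difference was 0.06 at 6 h and −0.06 at 30 h. Of 11 tested genes of other guidance families, the netrin receptor Unc5b was called at 30 h (13.9, 19.8 and 25.7 CPM).

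The members also differed between classes. For the test, all UMIs of a class in a library were added up, and the aCap, artery-gated, vein-gated and LEC sums were each compared with gCap over the 3 libraries with edgeR's quasi-likelihood test, with library as a block and p-values adjusted (Benjamini-Hochberg) over 12285 genes. The 3 libraries differ in treatment, and each class has 1 sum per library. The gates used other genes of the same barcodes.

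Against gCap, 6 members were higher and 4 lower in aCap, beside 26.2% of all genes higher and 26.9% lower. In artery-gated barcodes 4 were higher and 3 lower (8.29% and 7.29% of all genes). In vein-gated barcodes 3 were higher and 5 lower (17.4% and 13.7%), and in LEC 3 were higher and 5 lower (19.4% and 20.9%). All 10 members passed the filter on low counts. In aCap all 10 were called, beside 6524 of 12285 genes. The members were chosen with earlier results of these data known, so nothing more is read from these counts.

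The secreted ligands divided the classes. Sema3g was 219.8, 221 and 310.4 CPM in gCap and 386, 409.5 and 588 CPM in artery-gated barcodes, but 18.6 to 20.8 CPM in aCap, 6.70 to 8.09 CPM in vein-gated and 1.82 to 7.59 CPM in LEC barcodes. The artery-gated values were above gCap in each library, a log2 change of 0.88 (SE 0.11, edgeR adjusted p = 9.24e-06), and those of aCap were lower by −3.60 (SE 0.12, adjusted p = 3.31e-14). Vein-gated and LEC sums were also lower, with log2 changes of −4.99 and −5.75. LEC rested on 1 to 3 UMIs per library.

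Sema3c was highest in gCap, at 1942, 1599 and 2005 CPM. It was lower in each other class, with 550.0 to 817 CPM in artery-gated (log2 change −1.41), 536 to 593 CPM in vein-gated (−1.65), 249 to 278 CPM in aCap (−2.77) and 24.0 to 41.8 CPM in LEC barcodes (−5.84, SE 0.18, edgeR adjusted p = 6.46e-15). Sema3f, in contrast, was highest in aCap, at 345, 353 and 451 CPM against 145, 176 and 166 CPM in gCap, a log2 change of 1.26 (SE 0.12, edgeR adjusted p = 4.29e-08). Its levels in artery-gated, vein-gated and LEC barcodes, from 104 to 199.8 CPM, overlapped those of gCap and did not pass the test. With no filter on low counts the artery-gated sums of Sema3f were called lower (−0.29, edgeR adjusted p = 0.0499).

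The membrane ligands had different orders. Sema5a was higher in aCap than in gCap of each library, with a log2 change of 1.20 (SE 0.15, edgeR adjusted p = 1.76e-06). It was lower than in gCap in vein-gated (−3.20, SE 0.31) and LEC barcodes (−3.26, SE 0.65). These sums include the control and 6 h values used to choose Sema5a, so its class changes are descriptions. The aCap and gCap levels were 91.4 and 58.1 CPM in the control, closer in ratio than at 6 h (57.2 and 22.0 CPM) or 30 h (52.3 and 17.1 CPM). Sema6a was highest in LEC, at 1253, 1077 and 793 CPM, and next in aCap at 895, 807 and 832 CPM, where the 30 h values cross. Both were above gCap (613, 523 and 495 CPM), with log2 changes of 0.85 and 0.66, and artery-gated (453, 432 and 257 CPM) and vein-gated barcodes (442, 317 and 267 CPM) were below it, by −0.55 and −0.62. The artery-gated and vein-gated levels did not separate from each other over the libraries.

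Sema6d was lower in aCap (101, 110.1 and 107 CPM) and LEC (58.1, 58.2 and 69.9 CPM) than in gCap (179, 206 and 262 CPM), with log2 changes of −0.996 and −1.84. It did not pass the test in artery-gated (209.9 to 275 CPM) or vein-gated barcodes (188 to 229 CPM), and did in artery-gated ones without the 30 h library (0.30, edgeR adjusted p = 0.0345). Sema7a, which binds integrins and Plxnc1, was an aCap gene, with 287, 271 and 278 CPM there against 75.6, 70.5 and 72.8 CPM in gCap. The log2 change was 1.95 (SE 0.10, edgeR adjusted p = 5.06e-12), and the remaining classes, at 19.97 to 51.1 CPM, were all lower than gCap.

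Plxna4 was lowest in gCap (67.1, 78.5 and 76.8 CPM) and higher in all other classes, by 0.81 in aCap, 0.89 in artery-gated, 0.89 in vein-gated and 1.22 in LEC barcodes on the log2 scale. Plxna2 was also lowest in gCap, at 63.4 to 94.5 CPM, and highest in aCap in the control (294 CPM). At 6 h LEC (233 CPM, 188 to 285, 92 UMIs) and aCap (216 CPM) did not separate. The same held at 30 h for LEC (208 CPM, 170 to 252, 104 UMIs) and aCap (200.0 CPM). The aCap change of Plxna2 was 1.59 (SE 0.15, edgeR adjusted p = 3.33e-08), and the artery-gated change of 0.58 had an adjusted p of 0.0244. Without the control library this adjusted p was 0.0626, and without the 6 h library 0.142.

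Plxnd1 was lower in aCap than in gCap (log2 change −0.88, SE 0.12) and highest in artery-gated barcodes (1.15, SE 0.13, edgeR adjusted p = 3.77e-06). The vein-gated change of 0.55 was past the threshold (edgeR adjusted p = 0.00204), but not without the control library (adjusted p = 0.0862) nor without barcodes that held genes of other cell types (adjusted p = 0.139). LEC did not pass the test with the 3 libraries (0.36, adjusted p = 0.204), and passed it without the 30 h library (0.79, adjusted p = 0.0118).

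**Figure D3:**
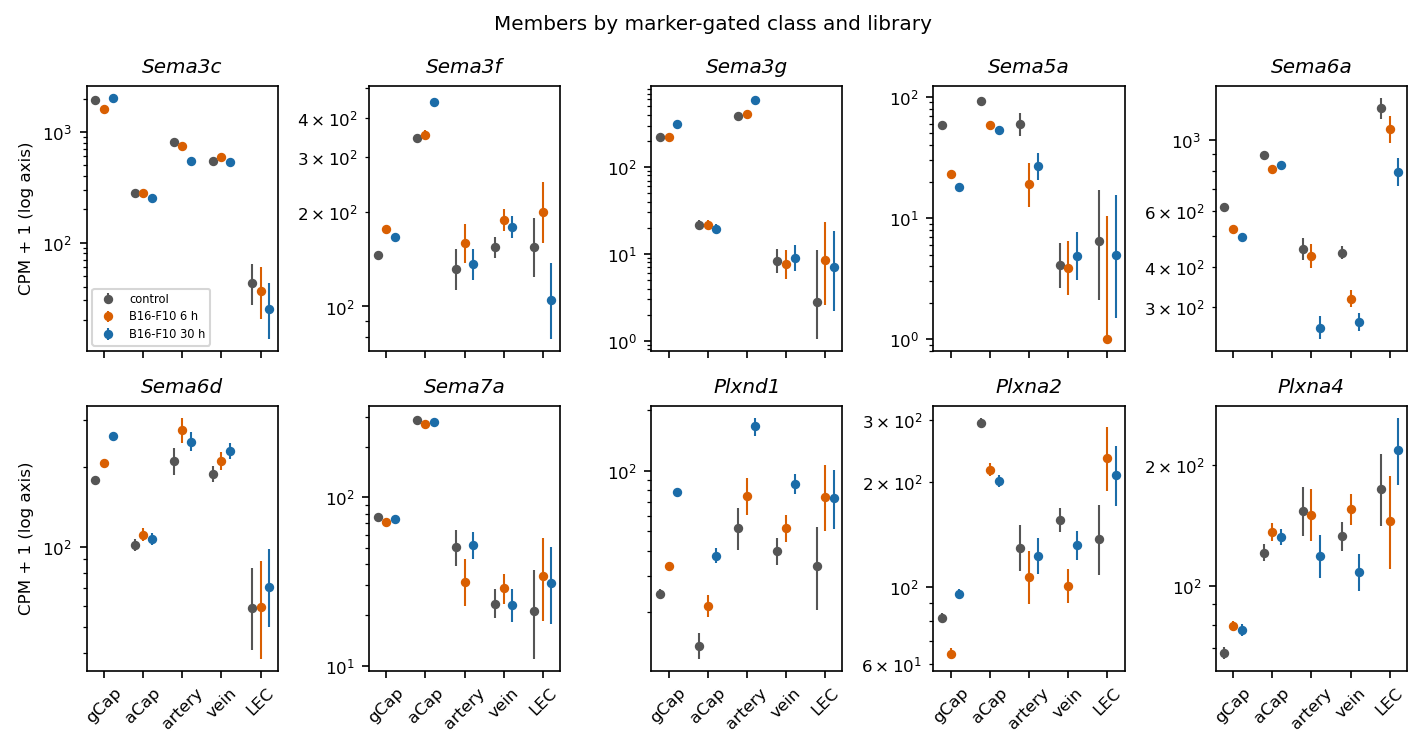
Levels of each gene (CPM + 1, log axis) in the 5 gated classes, with the control, B16-F10 6 h and B16-F10 30 h libraries as separate points and 95% counting intervals as bars. Sema3g is high in gCap and artery-gated barcodes and low elsewhere, Sema7a is high in aCap, and Plxnd1 is higher at 30 h than in the control in all classes.

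**Figure D4:**
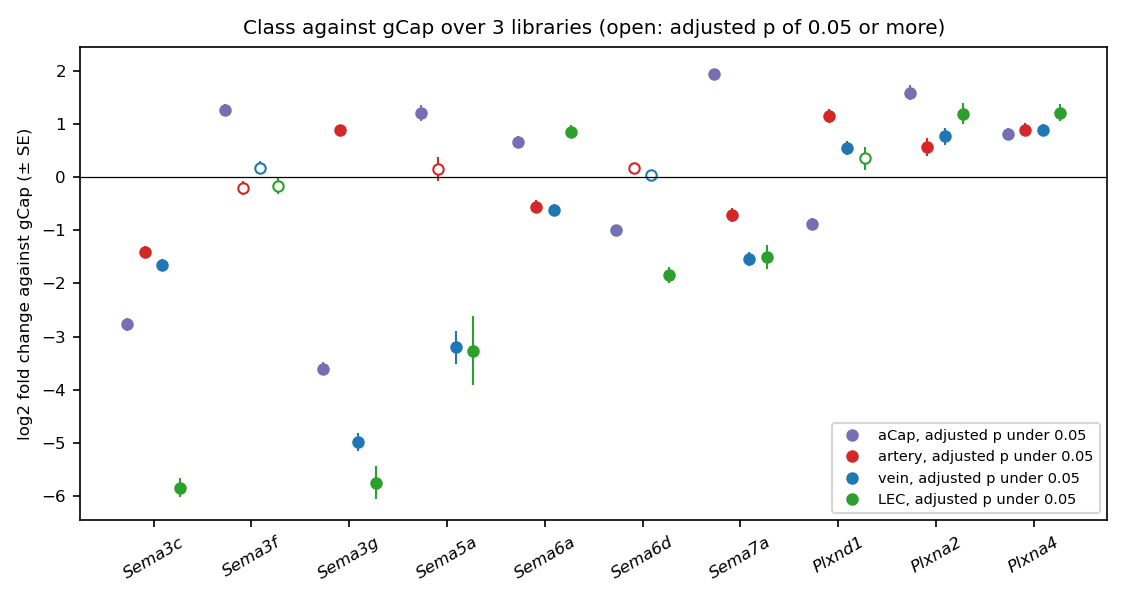
Log2 fold change of each class against gCap from the edgeR fit over 3 libraries, with standard errors as bars. Filled points have an adjusted p under 0.05, and open points do not. The largest drops are those of Sema3c and Sema3g in LEC (−5.84 and −5.75).

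The co-receptors differed between classes as well. Nrp1 was 1366 to 1957 CPM in aCap and 524 to 626 CPM in gCap (log2 change 1.53), and only 5.99 to 27.2 CPM in LEC (−5.22, SE 0.26). Nrp2, which binds Sema3f and Sema3g, was 924 to 1267 CPM in LEC and 135 to 179 CPM in vein-gated barcodes, against 4.198 to 6.02 CPM in gCap (log2 changes 7.69 and 4.91). The classes with most Nrp2 were thus those with least Sema3g. Of 9 other semaphorins tested in LEC, Sema3d, Sema3a, Sema4d and Sema6b were higher and Sema3b was lower than in gCap (19.4% and 20.9% of all genes). In vein-gated barcodes Sema3e, Sema3b, Sema4d and Sema6b were higher and Sema4b was lower (17.4% and 13.7%). In aCap 2 were higher, Sema3a and Sema3b, and 3 lower (26.2% and 26.9%). In artery-gated barcodes 1 was higher and 1 lower (8.29% and 7.29%). Sema3d was 629 to 726 CPM in LEC and at most 1.497 CPM in every other gated class, and Sema3a 449.6 to 861 CPM in LEC and at most 9.36 CPM elsewhere. Among the other plexins, Plxna1 was higher in aCap (0.54) and lower in artery-gated (−1.52), vein-gated (−2.20) and LEC barcodes (−3.57). Plxnc1 was lower in aCap (−3.31) and LEC (−4.13) and higher in vein-gated barcodes (1.10), where Plxnb2 was also higher (1.19).

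Of 22 partners tested by class, 9 were higher and 8 lower in aCap than in gCap, beside 26.2% and 26.9% of all genes. In artery-gated barcodes 3 were higher and 5 lower (8.29% and 7.29% of all genes), in vein-gated 7 and 5 (17.4% and 13.7%) and in LEC 5 and 6 (19.4% and 20.9%). Mical3 and Mical1, enzymes that act on actin after plexin signals, were higher in aCap, vein-gated and LEC barcodes, whereas Mical2 of the same family was lower in aCap (log2 change −0.68) and vein-gated barcodes (−0.80). Epithelial markers were uneven across these sums, with 2814 CPM in control LEC and 102 to 137 CPM in the other LEC sums, and 720 CPM in control aCap against 101 to 158 CPM in the other aCap sums. Their part in the class differences was not tested.

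Some differences over time differed in size by class. Sema6a in artery-gated barcodes was 453 CPM in the control, 432 CPM at 6 h and 257 CPM at 30 h, so only the 30 h value was low, by −0.82 on the log2 scale (−0.99 to −0.65). In vein-gated barcodes it was 442, 317 and 267 CPM (30 h difference −0.72, −0.84 to −0.61), and in LEC 1253, 1077 and 793 CPM (−0.66, −0.84 to −0.48), whereas aCap differed by −0.11 (−0.14 to −0.07). Sema3g in artery-gated barcodes differed by 0.60 at 30 h (0.46 to 0.76), near its gCap value of 0.50 (0.46 to 0.53), and in aCap by −0.16 (−0.42 to 0.09), with an interval that spans 0. Sema6d differed by 0.55 in gCap at 30 h (0.51 to 0.60) and by 0.08 in aCap (−0.03 to 0.19). These are descriptions of 1 library per group, and the difference between classes was not tested. The artery-gated set, of 149, 133 and 237 barcodes, also differed in its gate markers. Its artery list summed to 1496, 1517 and 1753 CPM and its gCap list to 2419, 2629 and 2102 CPM. The part of this shift in the 30 h artery-gated values was not tested.

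Shares of barcodes with a UMI are given for Sema5a and Plxnd1. They come from the same UMIs as the levels, so they are no separate support. After thinning each barcode to 2000 UMIs, 7.87% of control gCap barcodes held a Sema5a UMI (7.19 to 8.59, Clopper-Pearson), against 3.53% (3.07 to 4.05) at the earlier and 2.61% (2.17 to 3.10) at the later time. In aCap the shares were 13.8%, 9.28% and 7.48%. Without thinning, 19.6%, 11.5% and 7.72% of gCap barcodes held a UMI. Immune barcodes outside the gate, which should lack the gene, gave 0 of 16, 0 of 41 and 0 of 35 after thinning, with upper bounds of 20.6%, 8.60% and 10.0% that reach above the gCap shares. They do not stand for all barcodes outside the endothelial gate, which held 71.6, 47.3 and 35.1 CPM of Sema5a from 82, 73 and 46 UMIs. The cell types behind those UMIs were not assigned, and their part in the Sema5a difference was not tested. Vein-gated barcodes, with more cells, gave 0.231% (upper bound 1.28), 0.312% (1.72) and 0.915% (2.65), and the last of these bounds reaches the 30 h gCap share.

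Plxnd1 UMIs were found in 4.58% (4.06 to 5.14), 5.94% (5.34 to 6.59) and 14.1% (13.1 to 15.1) of gCap barcodes at the thinned depth, and in 16.6%, 21.7% and 44.1% without thinning. In artery-gated barcodes the thinned shares were 8.05%, 12.8% and 24.1%. Immune barcodes outside the gate gave 0 of 16, 3 of 41 (7.32%, 1.54 to 19.9) and 1 of 35 (2.86%, 0.0723 to 14.9), and these intervals are too wide to set the gCap shares apart from them. Median depths before thinning were 8060.5 to 8666 UMIs in gCap barcodes and 5876.5 to 7885 UMIs in the immune barcodes.

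**Figure D5:**
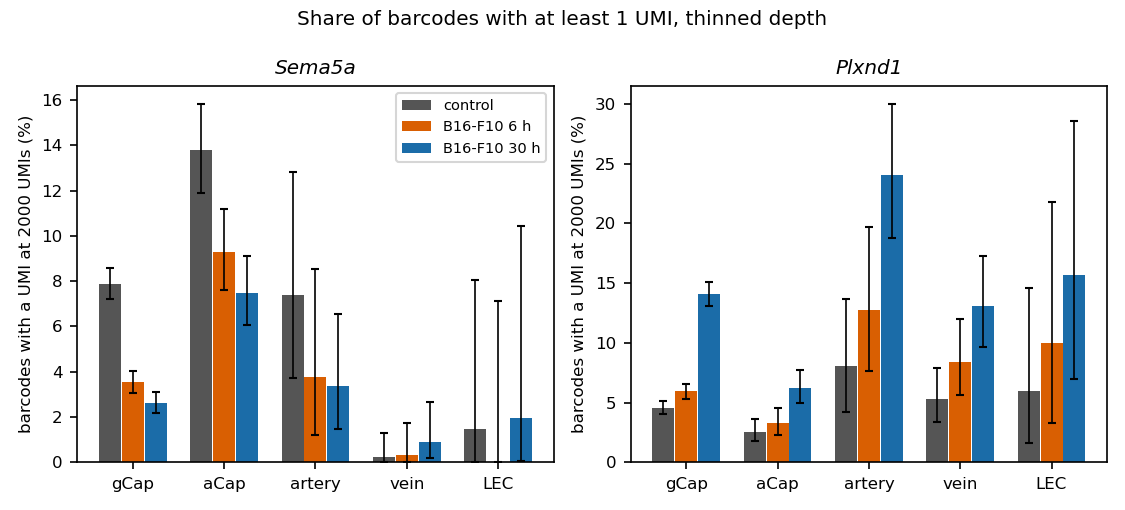
Share of barcodes (%) with at least 1 UMI of Sema5a (left) or Plxnd1 (right) after thinning to 2000 UMIs, by class and library. Error bars are 95% Clopper-Pearson intervals. The gCap share of Sema5a is 7.87% in the control and 2.61% at 30 h, and that of Plxnd1 is 4.58% and 14.1%.

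Genes with the most similar levels were sought over 15 sums (3 libraries by 5 classes) by Pearson's r of log2(CPM + 1), among 10561 genes. The sums share libraries and classes, so r is a description. For Sema5a they were Mapt (r = 0.96), Mpped2 (0.94), Grb14, Cerk and Mtmr2 (each 0.93), all of them lowest in vein-gated or LEC barcodes. Mapt itself was 269, 261 and 271 CPM in gCap, 679.5, 692.5 and 500.6 CPM in aCap and 229, 216 and 184 CPM in artery-gated barcodes. For Plxnd1 they were Pfdn1 (0.91), Flna (0.87) and Snrpf (0.86), and Flna, which links actin to the membrane, was 34.4, 46.5 and 57.6 CPM in gCap.

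Among the other ligands, the closest genes of Sema3c were AU020206, Rdx and Gna14 (0.98 to 0.99), those of Sema3g Zswim5, Plcb2 and the chemokine receptor gene Cxcr4 (0.96 to 0.97), and those of Sema3f 2610001J05Rik, Fkbp1a and Tmem159 (0.94 to 0.97). Sema6a was followed by Vav3, Gab1 and Ccdc152 (0.95 to 0.96), Sema6d by Gm28523, Pik3c2b and Ddr2 (0.97 to 0.98) and Sema7a by Car4, Bax and Lmntd1 (0.97 to 0.98). The receptors Plxna2 and Plxna4 were followed by Wdr41, Arhgef10 and A330023F24Rik (0.88 to 0.89), and by Timp3, Cables1 and Syn3 (0.89 to 0.92). Car4 was one of the genes that gated aCap.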

How the data were processed

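The authors made the deposited UMI counts per gene and barcode with Cell Ranger 7.2.0, per the file headers, on mouse build mm10, whereas the methods name an older version. The counts were neither filtered nor normalized. Whether intronic reads were counted is not given in the sources used here. The members and gene lists were chosen with earlier results of these data known, and the marker limits of the class gates after the marker counts, but not the members' levels, had been seen: at least 4 own markers (3 for LEC) and at most 3 gCap markers outside gCap. Barcodes with enough markers of several classes were left ungated. All members are named, and like genes by the highest r. Other pathway genes are named where past 1.5-fold against the control over all ECs. Some more are named for their level or class change, and the rest are only counted. The result of 1 partner is not reported here. Sums per library were compared as log2(CPM + 1), with exact Poisson and conditional binomial intervals (scipy 1.17.1), and class sums with edgeR 4.0.16. DESeq2 1.42.0 and Scrublet (scanpy 1.11.5) served as alternatives. Doublets were kept in the main setting. The class test was tested on simulated data. Positions are from GENCODE M21 on GRCm38.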

Additional observations from a re-analysis of the deposited data

Results flagged for a closer look

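Plxna2 moved in opposite directions in different classes. At 30 h its log2 difference against the control was 0.23 in gCap, −0.56 in aCap and −0.24 in vein-gated barcodes, and at 6 h it was −0.34 in gCap and 0.77 in LEC. Each of these counting intervals excluded 0, and the difference between classes was not tested, since each group is 1 library.

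UMIs of members were also counted outside the comparisons. In empty droplets at 30 h, Plxnd1 was 73.4 CPM against 24.8 CPM in the control, Sema3f 236 against 185 CPM and Sema7a 112 against 85.9 CPM, and at 6 h Plxna4 was 62.8 against 40.5 CPM. The 17 melanoma barcodes of the 6 h library held 16 UMIs of Sema3c (84.7 CPM) and 9 of Plxnd1 (47.7 CPM). Both were above the upper interval bound of a count of 0 (19.5 CPM). Empty droplets of that library held 796 CPM of Sema3c and 36.5 CPM of Plxnd1, so these UMIs do not show that the melanoma barcodes held either gene's RNA of their own.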

How the results depend on the processing

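Sema5a fell at both times under all 10 alternatives, with log2 differences of −1.47 to −1.11 at 6 h and −1.70 to −1.14 at 30 h, and Plxnd1 was higher, with 0.46 to 0.74 at 6 h and 1.42 to 1.68 at 30 h. The alternatives were other barcode, doublet and marker limits, a pseudocount of 5 CPM, TMM and DESeq2 size factors, class standardization and gCap barcodes alone. Leaving out barcodes with 2 or more immune, platelet, fibroblast, mural or melanoma genes was chosen after seeing the data, since the planned list, with red cell and epithelial genes, kept only 1428, 2878 and 6192 barcodes. At 6 h, 0 members were called higher in gCap barcodes alone and 0 past 2-fold, where 1 was called in the main setting. The other 50 of 52 such counts did not change by over 1.5 times. Of the members' log2 ratios under the alternatives, 56 moved by more than their counting intervals allow and 144 did not. At 30 h the median log2 difference of all genes was −0.071 by CPM and −0.0038 with TMM factors. A ratio as small as that of Sema3c at 30 h (−0.04) thus depends on the scaling. Over all genes, the numbers higher and lower were 128 and 61 at 6 h and 283 and 277 at 30 h with the pseudocount of 5 CPM, 294 and 180, and 714 and 618, with no filter, 97 and 68, and 239 and 300, above 20 CPM, and 38 and 11, and 82 and 90, past 2-fold.

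The library numbers pair the class sums, since each library is 1 pool of mice. Without the replicate block, 2 members rather than 4 were called higher in artery-gated barcodes (Plxnd1 and Plxna2 were lost, with edgeR adjusted p of 0.254 and 0.138). Other calls lost without the block were Plxnd1 in aCap (0.183) and vein-gated sums (0.663) and Sema6a in artery-gated (0.160) and vein-gated sums (0.0583). The calls over all genes went from 6524 to 3900 in aCap, 1914 to 1008 in artery-gated and 3821 to 2102 in vein-gated sums. Without the control library the last pair of contrasts had 1194 and 2538 calls. Without barcodes of all other cell type lists they had 1092 and 2398, and LEC 3198 rather than 4955. Leaving out 1 library gave 3 to 5 members higher in artery-gated, 2 to 3 in vein-gated and 3 to 4 in LEC sums. Only members that did not pass the test changed sign. Sema5a in artery-gated sums (0.16) ranged from −0.051 to 0.24 over the left-out libraries and was −1.20 with 1 more marker per class. Sema6d in vein-gated sums (0.04) ranged from −0.0086 to 0.13, and was −0.028 with no filter on low counts and −0.034 without barcodes of all other cell type lists. Sema3f in LEC (−0.16) ranged from −0.32 to 0.075. The causes were not tested, except that fewer samples or barcodes entered where some were left out.

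With 1 library per group, mouse-to-mouse variation is unknown, and counting intervals understate it. LEC sums rest on 50 to 67 barcodes.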
